A study of Mus musculus with 12 samples.

Results

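The translation initiation and elongation factors were taken as every probe set whose gene symbol begins with Eif or Eef followed by the numbering of these factors. This rule found 82 of the 35556 probe sets on the array, of which 71 carried 1 gene symbol and 11 carried several. With 1 probe set per gene, the 71 came to 61 of the 19938 genes compared here. The 61 also include enzymes that act on these factors: 4 eIF2 kinases, the eEF2 kinase and 5 methyltransferases of elongation factors. RNA was measured on 12 arrays from cultured mouse myeloid progenitors, and virus and Zfx genotype together define 4 groups, each with 3 arrays. All mice were male, carried CreER, a Cre recombinase that tamoxifen switches on, and received tamoxifen at 5 mg a day for 3 days, so the controls had Cre and drug as well. The c-Kit+ marrow cells of Zfx wt/y CreER mice gave the Zfx wt groups, and those of Zfx fl/y CreER mice gave the groups labelled Zfx ko. Cells of each genotype received a retrovirus with Myc and a GFP marker or a control retrovirus with GFP alone, and sorted GFP+ cells were kept in medium with SCF, IL-3 and IL-6 for 4 days before RNA was taken. What drives CreER, and whether RNA of several mice was pooled, is not stated in the labels. The series asks how loss of Zfx, a zinc finger protein that acts on transcription and is encoded on the X chromosome, bears on the expression that Myc induces.

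Translation begins when the factor eIF2, carrying GTP and the initiator tRNA, joins the small ribosomal subunit with eIF1, eIF1A, eIF3 and eIF5, and the eIF4 factors bring in the capped mRNA. Each round leaves eIF2 bound to GDP, and eIF2B exchanges that GDP for GTP; 4 kinases that answer to heme shortage, double-stranded RNA, unfolded protein or uncharged tRNA phosphorylate eIF2 and thereby block eIF2B. Elongation then runs on eEF1A, which delivers the amino acid tRNAs, and eEF2, which moves the ribosome along. Myc is known for raising the capacity of cells to make protein.

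Values are intensities on a linear scale, and differences are given as log2 or fold between group means of log2 values, with adjusted p from limma (Benjamini-Hochberg over all 19938 genes, threshold 0.05). Myc itself was 1.74-fold higher with the Myc virus in Zfx wt and 1.87-fold higher in Zfx ko. The signal of the Zfx probe set did not fall in the ko groups: the ko minus wt difference was 0.11 on the log2 scale with GFP (adjusted p = 0.619) and 0.08 with Myc (adjusted p = 0.789). Every Zfx comparison here therefore rests on the label, and which exons the probes read is not stated in the labels. The labels do not say whether the replicates are separate mice or cultures, so p-values measure the spread between arrays, which may be technical. Arrays with the same replicate number deviated together, and results that change when the number is fitted as a block are given both ways.

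The cell mixture also moved between groups, as read from marker lists. The summed intensity of 11 mature neutrophil markers ran from 68160 to 81000 in the Zfx wt arrays with GFP and from 34650 to 47780 with Myc, and from 71110 to 86730 in the Zfx ko arrays with GFP and from 44060 to 51320 with Myc. With Myc, 7 of the 11 fell in wt and 8 in ko, where 3.11% and 4.59% of all genes fell. The sum of 12 mast cell and basophil markers ran from 22000 to 28320 (GFP, wt), 9170 to 21990 (Myc, wt), 12250 to 17450 (GFP, ko) and 4504 to 8229 (Myc, ko). Of these 12, 6 fell with Myc in each genotype and 1 rose in wt, where 6.17% of all genes rose. By Zfx genotype, 3 were lower in ko than in wt with GFP and 4 with Myc, where 2.94% and 3.72% of all genes were. The sum of 10 myeloid progenitor markers, the labelled cell type, ran from 80710 to 88160 (GFP, wt) and 70980 to 75540 (Myc, wt). In ko it ran from 73130 to 81210 (GFP) and 60540 to 68800 (Myc), so the Myc sums lay below the GFP sums of each genotype. All 10 had a negative Myc difference in each genotype, as had 9691 of all 19938 genes in wt and 9495 in ko. As lower, 2 passed the threshold in wt and 3 in ko, where 3.11% and 4.59% of all genes did. The sum of the 7 erythroid markers measured ran from 1018 to 1323 (GFP, wt), 1336 to 1889 (Myc, wt), 1594 to 1797 (GFP, ko) and 2691 to 7209 (Myc, ko). In bulk RNA, fewer cells of a type and less RNA per cell cannot be told apart, and the part of these shifts in the results on translation factors was not tested.

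With Myc, more translation factors rose than fell in both genotypes. In Zfx wt, 17 of the 61 genes passed the threshold as higher and 1 as lower, where 6.17% of all genes were higher and 3.11% lower. In Zfx ko, 24 were higher and 0 lower, where 8.58% of all genes were higher and 4.59% lower. At an unadjusted limma p under 0.05, 36 were higher and 1 was lower in Zfx wt, where 2563 and 1509 of all 19938 genes were. At the same cut, 42 were higher and 1 was lower in Zfx ko, where 2930 and 1860 of all genes were. The median log2 difference over the 61 genes was 0.24 in wt and 0.26 in ko, against 0.004 and 0.006 over all genes, and the difference was above 0 for 56 genes in wt and 54 in ko. Single differences ran from -0.27 (Eif2ak3) to 0.76 (Eef1aknmt) in wt and from -0.24 (Eif2ak3) to 0.82 (Eif5a2) in ko. In the 3 same-numbered pairs of arrays the median over the 61 genes was 0.27, 0.18 and 0.31 in wt and 0.36, 0.22 and 0.21 in ko. The differences were modest in size and mostly of 1 sign. All genes include dim probe sets, whereas 59 of the 61 genes lay above the median intensity. The shares and medians of all genes given here are thus not matched for intensity. The part of brightness in their distance from those of the 61 genes was not tested.

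With the replicate number as a block, 33 genes were higher and 1 lower in wt (12.2% and 8.25% of all genes), and 40 higher and 1 lower in ko (14.5% and 10.4%). The 2 Myc comparisons share no arrays, but they share 1 estimate of the spread and same-numbered arrays deviated together. They are therefore not independent, and the share of all genes higher in both is not given here. Of the 61 genes, 15 were higher in both, which is 88.2% of the 17 in wt and 62.5% of the 24 in ko. These 15 were Eef1aknmt, Eef1b2, Eef1d, Eef1e1, Eif1a, Eif1ad, Eif2b1, Eif2b3, Eif2b4, Eif2b5, Eif2d, Eif3d, Eif3i, Eif4b and Eif4ebp1. Past the threshold in wt but not in ko were Eef2kmt and Eif5a, and past it in ko but not in wt were 9 genes, among them Eif2s3x, Eif5b, Eif6 and Eif2ak1. None of these differences between genotypes passed a test of the difference itself. The interaction of Myc and Zfx called 0 of 61 genes (limma, lowest adjusted p = 1, and 0.951 with the block), and 1 gene, Eif2ak1, had an unadjusted p under 0.05. Over all genes the interaction called 0% in either direction, and with the block 0% higher and 0.00502% lower; 175 and 168 genes had an unadjusted p under 0.05 for a larger or smaller Myc difference in ko.

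Single arrays weighed on the counts. Without the third Myc array, the third GFP array or the first GFP array of Zfx wt, the number of genes called in wt went from 18 to 6, 7 and 10. Without the first GFP array, the third Myc array or the second Myc array of Zfx ko, the number called in ko went from 24 to 11, 11 and 15. Calls kept whichever of the 12 arrays was left out were those of Eef1aknmt, Eif1ad, Eif2b3, Eif3d, Eif3i and Eif4ebp1 in wt, and of Eef1aknmt, Eef1d, Eef1e1, Eif1ad, Eif2b1, Eif2b3, Eif2b4, Eif3d, Eif3i and Eif4b in ko. The other calls were lost without at least 1 array, among them Eif5a and Eif2d in wt, each in 7 of the 12 fits, and Eif3b (8) and Eef1akmt1 (7) in ko.

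**Figure D1:**
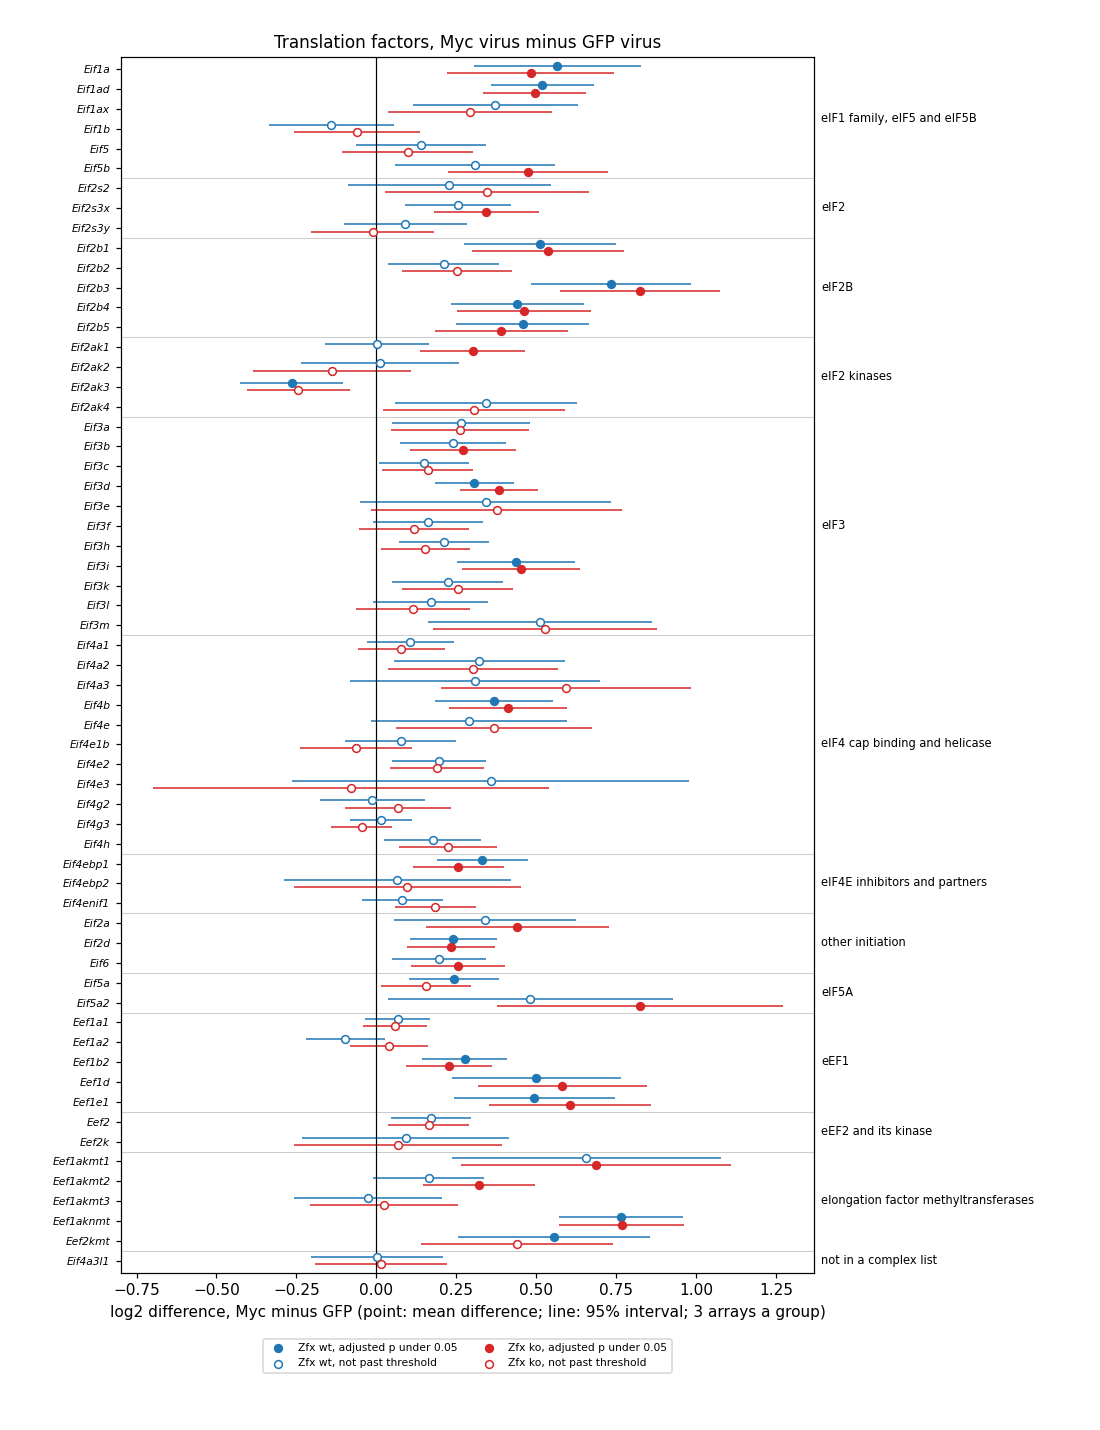
Log2 difference between Myc and GFP arrays (x axis, log2 units) for each of the 61 translation factor genes (y axis, grouped by complex), in Zfx wt (blue) and Zfx ko (red), with 95% intervals from limma over 3 arrays a group. Filled points passed an adjusted p under 0.05; most points lie right of 0, with Eif2b3 and Eef1aknmt among the farthest, and Eif2ak3 lies left of 0 in both genotypes.

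Promoter sequence was read for the genes with an entry in the RefSeq promoter table (assembly GRCm38.p6), which held 63 windows of 48 of the 61 genes. The windows used were the 250 bases before each start. The palindrome CACGTG, known as the E-box that Myc and its partner Max bind, was in at least 1 window of 11 of the 48 genes (22.9%), against 6.9% of all 27025 genes of the table; base composition was not matched. The 11 were Eef1aknmt, Eef2, Eef2k, Eif1b, Eif3f, Eif3k, Eif4a1, Eif4e, Eif4h, Eif5a and Eif5a2. The motif did not follow the calls: it was in 2 of the 12 genes higher with Myc in wt and in 9 of the 36 others, and in 2 of the 17 higher in ko and 9 of the 31 others. Of the eIF2B genes, Eif2b1, Eif2b2, Eif2b4 and Eif2b5 had windows, and none held CACGTG. The palindrome AGGCCT, part of a motif reported for Zfx, was in windows of 5 of the 48 genes (10.4%) and of 9.9% of all genes. The windows of 4 genes are shown 5′ to 3′ on the gene's strand, with CACGTG in capitals: the cap-binding factor Eif4e and the hypusine-bearing Eif5a2, each of which holds 2 copies, the methyltransferase Eef1aknmt, which had the lowest adjusted p of the 61 genes in both Myc comparisons, and the elongation factor Eef2. The windows lie at chr3:138527018-138527267 (plus strand, Eif4e), chr3:28781027-28781276 (plus strand, Eif5a2), chr1:162548346-162548595 (minus strand, Eef1aknmt) and chr10:81176381-81176630 (plus strand, Eef2).
Eif4e: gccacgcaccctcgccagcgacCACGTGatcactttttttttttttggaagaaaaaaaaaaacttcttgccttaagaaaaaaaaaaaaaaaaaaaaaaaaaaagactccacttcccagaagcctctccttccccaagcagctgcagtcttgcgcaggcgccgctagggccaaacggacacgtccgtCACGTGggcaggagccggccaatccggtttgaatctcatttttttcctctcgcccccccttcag
Eif5a2: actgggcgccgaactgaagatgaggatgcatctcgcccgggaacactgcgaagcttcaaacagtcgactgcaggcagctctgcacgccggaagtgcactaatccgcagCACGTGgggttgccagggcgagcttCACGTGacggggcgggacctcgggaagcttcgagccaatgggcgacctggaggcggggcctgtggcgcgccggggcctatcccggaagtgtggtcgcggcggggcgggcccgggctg
Eef1aknmt: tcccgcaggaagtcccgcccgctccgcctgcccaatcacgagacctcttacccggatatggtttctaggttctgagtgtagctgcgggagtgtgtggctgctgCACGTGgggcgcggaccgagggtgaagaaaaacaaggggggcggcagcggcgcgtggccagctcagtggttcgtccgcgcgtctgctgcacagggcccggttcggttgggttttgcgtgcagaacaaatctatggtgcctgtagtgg
Eef2: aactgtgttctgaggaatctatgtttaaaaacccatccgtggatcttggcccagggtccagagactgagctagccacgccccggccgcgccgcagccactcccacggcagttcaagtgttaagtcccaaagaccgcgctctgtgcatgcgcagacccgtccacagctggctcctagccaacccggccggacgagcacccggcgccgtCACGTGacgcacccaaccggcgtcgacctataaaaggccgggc
The copies begin 228 and 64 bases before the start of Eif4e, 142 and 117 bases before that of Eif5a2, 147 bases before that of Eef1aknmt and 43 bases before that of Eef2. A match of letters is not a measured binding site, and RNA arrays do not measure binding.

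Of the eIF2 complex, the beta subunit Eif2s2 and the gamma subunits Eif2s3x and Eif2s3y had a probe set of their own, and the alpha subunit Eif2s1 was not analysed here. Eif2s3x read 5523, 6073 and 5894 with GFP and 6730, 7099 and 7034 with Myc in Zfx wt (replicates 1 to 3), and 4994, 6064 and 5790 with GFP and 6765, 7275 and 7289 with Myc in Zfx ko. All Myc arrays lay above all GFP arrays of the same genotype. The log2 difference was 0.34 ± 0.07 (SE) in ko (adjusted p = 0.0132) and 0.26 ± 0.07 in wt (adjusted p = 0.0614, and 0.00598 with the block). Its Y-linked counterpart Eif2s3y differed by 0.09 in wt and -0.01 in ko and was not called in any comparison. Eif2s2 had log2 differences of 0.23 in wt (adjusted p = 0.471) and 0.35 in ko (adjusted p = 0.165), which passed only with the block (0.0213 and 0.00225). A dimmer probe set of Eif2s2 gave 0.36 and 0.46.

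Of the 5 subunits of the exchange factor eIF2B, 4 rose with Myc in wt and the same 4 in ko, where 6.17% and 8.58% of all genes rose. The median log2 difference was 0.46 in each genotype. The wt calls of Eif2b1, Eif2b4 and Eif2b5 were lost in 2, 4 and 3 of the 12 fits that left out 1 array. The ko call of Eif2b5 was lost in 3. Eif2b3, the gamma subunit of the catalytic part, read 1465, 1643 and 1375 with GFP and 2521, 2232 and 2702 with Myc in Zfx wt. In Zfx ko it read 1112, 1387 and 1434 with GFP and 2235, 2184 and 2506 with Myc. The lowest Myc array lay well above the highest GFP array in each genotype. It rose 1.66-fold in wt (log2 0.73 ± 0.11, adjusted p = 0.00459) and 1.77-fold in ko (log2 0.82 ± 0.11, adjusted p = 0.00179).

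Eif2b5, the epsilon subunit that carries the exchange activity, read 999, 1184 and 963 with GFP and 1450, 1409 and 1444 with Myc in wt, and 913, 1121 and 1057 with GFP and 1261, 1349 and 1434 with Myc in ko. It rose 1.37-fold in wt (adjusted p = 0.0136) and 1.31-fold in ko (adjusted p = 0.0214). The other 3 subunits, alpha, beta and delta, form the part that senses phosphorylated eIF2. Of these, Eif2b1 (alpha) rose 1.43-fold in wt and 1.45-fold in ko (adjusted p = 0.0148 and 0.00914), and Eif2b4 (delta) 1.36-fold and 1.38-fold (adjusted p = 0.0162 and 0.01). Their Myc and GFP arrays did not overlap in either genotype. Eif2b2 (beta) read 827, 917 and 766 with GFP and 995, 940 and 962 with Myc in wt, and 804, 954 and 843 with GFP and 1048, 1009 and 1034 with Myc in ko. Its arrays did not overlap either. The log2 differences of 0.21 and 0.25 did not pass (adjusted p = 0.139 and 0.0593). With the block, ko passed (0.0302) and wt did not (0.0729).

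**Figure D2:**
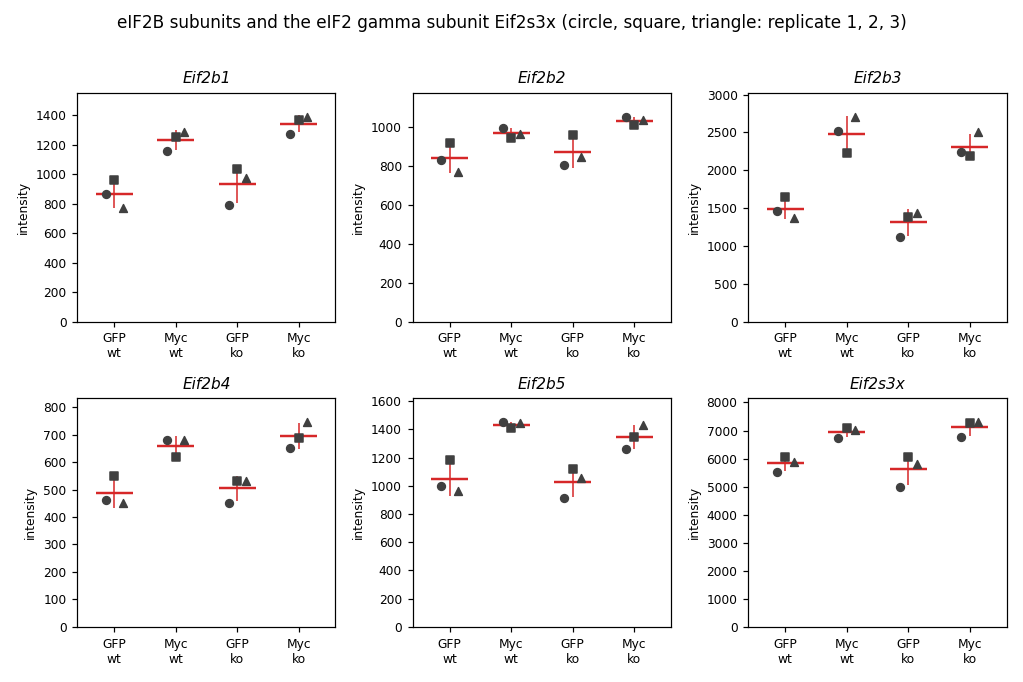
Intensity (y axis, linear scale from 0) of the 5 eIF2B subunits and of the eIF2 subunit Eif2s3x on each array, by group (x axis); points are arrays, red lines are group means and bars are 1 SD of 3 arrays. In each panel the Myc arrays lie above the GFP arrays of the same genotype, and wt and ko arrays of the same virus overlap or lie close.

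The 4 eIF2 kinases did not move together with Myc. Eif2ak3 (PERK, the kinase of the unfolded protein response) read 688, 716 and 769 with GFP and 614, 586 and 607 with Myc in Zfx wt, and 659, 652 and 780 with GFP and 591, 592 and 577 with Myc in Zfx ko. The Myc arrays were below the GFP arrays in both genotypes. It fell in wt, by 0.27 ± 0.07 on the log2 scale (adjusted p = 0.0468), the only 1 of the 61 genes to do so. In ko the difference was -0.24 ± 0.07 (adjusted p = 0.0517, and 0.02 with the block). The wt call was lost in 9 of the 12 fits that left out 1 array, at adjusted p from 0.0614 to 0.18, and under 4 of 8 other settings.

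Eif2ak1 (HRI, the heme-regulated kinase, best known from red cell precursors) read 1393, 1465 and 1490 with GFP and 1437, 1491 and 1422 with Myc in Zfx wt. In Zfx ko it read 1463, 1452 and 1563 with GFP and 1658, 1830 and 2047 with Myc. The 3 ko arrays with Myc were thus above all other arrays, and the other 3 groups overlapped. With Myc it rose 1.23-fold in ko (log2 0.30 ± 0.07, adjusted p = 0.0225), while in wt the difference was 0.00 (adjusted p = 0.998). Among Myc arrays, ko was 1.27-fold above wt (adjusted p = 0.0226). The interaction was 0.30 ± 0.10 on the log2 scale and did not pass (adjusted p = 1, and 0.951 with the block). The summed erythroid markers on the same 3 arrays were 2691, 4158 and 7208, also above every other array. Of the 7 erythroid markers, 5 were higher with Myc in ko, where 8.58% of all genes were. The part of these markers in the Eif2ak1 result was not tested. Without the ko array with Myc that had the most erythroid signal, the Myc difference in ko was 0.22 (adjusted p = 0.0768). The ko minus wt difference was then 0.27 (adjusted p = 0.0666). Other omissions also lost these calls but left larger differences, of 0.28 to 0.30 for Myc in ko and 0.33 to 0.36 for ko minus wt. The Myc call in ko was lost in 4 of the fits that left out 1 array, and the ko minus wt call in 5. Among these were fits without a ko array with GFP (adjusted p = 0.0726 and 0.063 for the Myc call). Fits without a wt array with Myc also lost the ko minus wt call (adjusted p = 0.0719, 0.0523 and 0.0874).

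Eif2ak4 (GCN2, the kinase that senses uncharged tRNA) had the largest difference by Zfx genotype of the 61 genes. It read 594, 656 and 571 in wt and 349, 474 and 349 in ko with GFP, and 766, 780 and 760 in wt and 471, 552 and 418 in ko with Myc. Every ko array was below every wt array of either virus. In ko it was 0.637 times the wt level with GFP (log2 -0.65 ± 0.13, adjusted p = 0.0188) and 0.621 times with Myc (log2 -0.69 ± 0.13, adjusted p = 0.0123). The GFP call was lost without the first or second wt array (adjusted p = 0.0562 and 0.0671) or the first or the third ko array (0.0673 and 0.0731), with log2 differences from -0.66 to -0.58; the Myc call was kept whichever array was left out. With Myc, Eif2ak4 was 0.34 higher on the log2 scale in wt and 0.31 in ko (adjusted p = 0.142 and 0.17), which passed only with the block (0.015 and 0.021). Eif2ak2 (PKR, which binds double-stranded RNA) was not called in any comparison; its Myc differences were 0.01 in wt and -0.14 in ko.

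**Figure D3:**
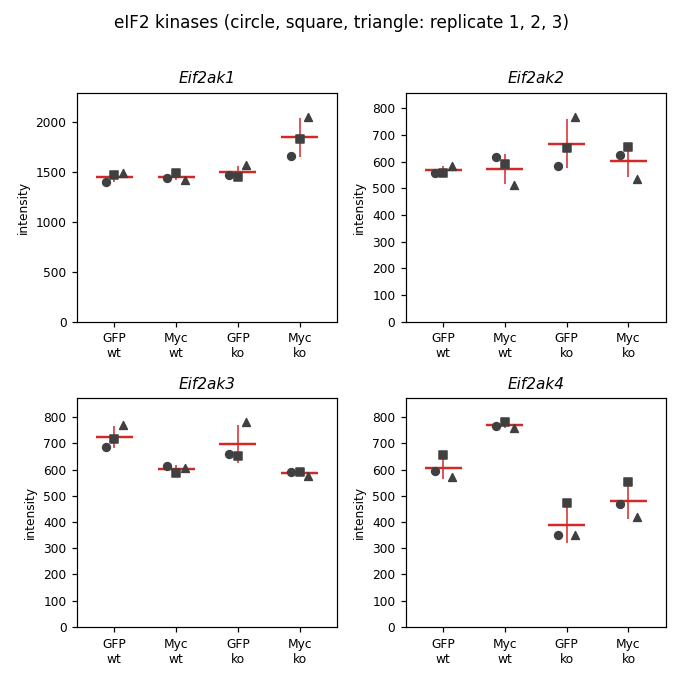
Intensity (y axis, linear scale from 0) of the 4 eIF2 kinases on each array, by group (x axis); points are arrays, red lines are group means and bars are 1 SD of 3 arrays. Eif2ak4 is lower in both ko groups, Eif2ak1 is highest in the ko arrays with Myc, Eif2ak3 is lower with Myc, and Eif2ak2 overlaps between groups.

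Among the 6 measured genes listed as the eIF1 family, eIF5 and eIF5B, Eif1a and Eif1ad rose with Myc in both genotypes and Eif5b in ko. Of all genes, 6.17% rose in wt and 8.58% in ko. Eif1a (eIF1A, which helps the small subunit scan the mRNA) read 856, 926 and 855 with GFP and 1251, 1350 and 1302 with Myc in wt, and 807, 1097 and 975 with GFP and 1185, 1544 and 1285 with Myc in ko. It rose 1.48-fold in wt (adjusted p = 0.0139) and 1.40-fold in ko (adjusted p = 0.0222), with no overlap between viruses. Of the 11 probe sets with several symbols, 4 carry Eif1a with near-identical copies, and none of the 4 passed in either genotype, with differences from 0.16 to 0.36.

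Eif1ad, a protein with an eIF1A domain, read 1902, 2039 and 1996 with GFP and 2907, 2650 and 2952 with Myc in wt, and 1638, 1800 and 1982 with GFP and 2543, 2481 and 2596 with Myc in ko. It rose 1.43-fold in wt (adjusted p = 0.00316) and 1.41-fold in ko (adjusted p = 0.00229). Eif5b, the GTPase that joins the large subunit, rose 1.39-fold in ko (adjusted p = 0.0204), and in wt its log2 difference was 0.31 (adjusted p = 0.133, and 0.0212 with the block). Eif1ax, the X-linked form of eIF1A, had log2 differences of 0.37 in wt and 0.29 in ko (adjusted p = 0.079 and 0.146) and passed only with the block (0.00687 and 0.0173). At the other end of this group, Eif1b, a paralog of the start codon factor eIF1, had log2 differences of -0.14 and -0.06 and did not pass.

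The subunits of the scaffold complex eIF3 had small differences of 1 sign. All 11 measured subunits had a positive Myc difference in both genotypes and in all 6 same-numbered pairs of arrays, with a median log2 difference of 0.24 in wt and 0.26 in ko and a range from 0.11 (Eif3l, ko) to 0.53 (Eif3m, ko). Over all genes the difference was positive for 10247 of 19938 in wt and 10443 in ko. Past the threshold were Eif3d and Eif3i in wt, and these with Eif3b in ko, where 6.17% and 8.58% of all genes were higher. With the block, 7 subunits passed in wt and 8 in ko, where 12.2% and 14.5% of all genes were higher. Eif3g, Eif3j1 and Eif3j2 were not analysed here as single genes.

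Eif3i read 2340, 2574 and 2233 with GFP and 3310, 3117 and 3230 with Myc in wt, and 2183, 2680 and 2636 with GFP and 3262, 3500 and 3461 with Myc in ko, a 1.35-fold rise in wt (adjusted p = 0.0101) and 1.37-fold in ko (adjusted p = 0.00642). Eif3d, the subunit that can itself bind the cap of some mRNAs, read 3629, 3931 and 3668 with GFP and 4542, 4557 and 4777 with Myc in wt, and 3509, 3733 and 3727 with GFP and 4724, 4586 and 5002 with Myc in ko. It rose 1.24-fold in wt (adjusted p = 0.00817) and 1.31-fold in ko (adjusted p = 0.0022). For both subunits the viruses did not overlap in either genotype. Eif3m had larger differences of 0.51 and 0.53 on the log2 scale but a wider spread (SE 0.16), and passed only with the block (adjusted p = 0.00275 and 0.0018, against 0.0754 and 0.0533 without). A dimmer Eif3m probe set gave 0.56 in wt and 0.44 in ko, which did not pass.

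Of the 11 eIF4 genes of cap binding and mRNA unwinding, Eif4b was the 1 that passed in each genotype. The share of 1 in 11 is near that of all genes, of which 6.17% were higher in wt and 8.58% in ko. With the block, 4 were higher in wt and 5 in ko, where 12.2% and 14.5% of all genes were. Eif4b, which stimulates the helicase eIF4A, read 3989, 3986 and 4132 with GFP and 5266, 4719 and 5685 with Myc in wt, and 4025, 3783 and 4272 with GFP and 5511, 4851 and 5726 with Myc in ko. It rose 1.29-fold in wt (adjusted p = 0.0206) and 1.33-fold in ko (adjusted p = 0.00957), with no overlap. The helicase gene Eif4a1 differed by 0.11 and 0.08 on the log2 scale and did not pass (adjusted p = 0.41 and 0.576); its 2 other probe sets gave 0.06 to 0.09. The scaffold Eif4g1 was not analysed here, and its relatives Eif4g2 and Eif4g3 differed by -0.05 to 0.07.

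The cap-binding gene Eif4e was read by several probe sets of unlike brightness. Its brightest probe set read 1778, 2261 and 1890 with GFP and 2317, 2564 and 2339 with Myc in wt, and 1628, 2256 and 2074 with GFP and 2314, 2969 and 2387 with Myc in ko. The log2 differences of 0.29 and 0.37 did not pass (adjusted p = 0.28 and 0.121) but did with the block (0.0181 and 0.00452). A second probe set rose by 0.43 in wt and 0.33 in ko (limma adjusted p over all probe sets of 0.0172 and 0.0403). The last differed by -0.004 and -0.001 and did not pass. It read only 109 to 138 on the arrays, near the array median of 127 to 137. Several of these genes, Eif4e, Eif4a1, Eif5a, Eef1a1, Eif3m and Eif2s2 among them, may have near-identical copies elsewhere in the genome, and the probe gene table does not give the copy a probe set reads, so their levels are uncertain. The 2 probe sets shared by Eif4a3 and Eif4a3l1 rose by 0.25 and 0.27 in wt and by 0.30 and 0.33 in ko, while the single-symbol probe set of Eif4a3 had differences of 0.31 and 0.59 that did not pass (adjusted p = 0.404 and 0.0511).

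The inhibitor Eif4ebp1, which holds eIF4E until mTORC1 phosphorylates it, rose as well. It read 2176, 2027 and 2101 with GFP and 2685, 2641 and 2603 with Myc in wt, and 2264, 2262 and 2394 with GFP and 2518, 2781 and 2985 with Myc in ko. The rise was 1.26-fold in wt (adjusted p = 0.0106) and 1.20-fold in ko (adjusted p = 0.0253), with no overlap between viruses. Its paralog Eif4ebp2 differed by 0.07 and 0.10 on the log2 scale and was not called.

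Of the other initiation factors, Eif2d, which can deliver initiator tRNA without eIF2, rose 1.18-fold in wt (adjusted p = 0.0357) and 1.18-fold in ko (adjusted p = 0.0323). Eif2a, a separate protein from the eIF2 alpha subunit, rose 1.36-fold in ko (adjusted p = 0.0477), and in wt its log2 difference was 0.34 (adjusted p = 0.148, and 0.00268 with the block). The ko call of Eif2a was lost in 10 of the 12 fits that left out 1 array, at adjusted p from 0.0518 to 0.159 and log2 differences down to 0.31, and under 3 of 8 other settings. Eif6, which keeps the large subunit from joining too early, read 3442, 3811 and 3380 with GFP and 4050, 3868 and 4259 with Myc in wt, and 3248, 3548 and 3403 with GFP and 3920, 3965 and 4294 with Myc in ko. It rose 1.19-fold in ko (adjusted p = 0.0293), and in wt its log2 difference was 0.20 (adjusted p = 0.102). Its Myc and GFP arrays did not overlap in either genotype.

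The eIF5A genes encode the proteins that carry hypusine and help ribosomes past difficult peptide bonds. Eif5a rose 1.18-fold in wt (adjusted p = 0.0371) and differed by 0.16 on the log2 scale in ko (adjusted p = 0.153); its second probe set gave 0.08 and 0.14. Eif5a2 read 265, 297 and 240 with GFP and 308, 368 and 453 with Myc in wt, and 217, 272 and 262 with GFP and 345, 411 and 606 with Myc in ko. Myc arrays were above GFP arrays in each genotype, and the third Myc array was the highest of its group in both. It rose 1.77-fold in ko (log2 0.82 ± 0.20, adjusted p = 0.0226) and had a log2 difference of 0.48 in wt (adjusted p = 0.197). Without the third Myc array of ko the ko difference was 0.60 (adjusted p = 0.068).

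Among elongation factors, 3 genes named for partners of eEF1A rose with Myc, and neither eEF1A gene was called. Of all genes, 6.17% rose in wt and 8.58% in ko. Eef1a1 read 18217, 18500 and 17651 with GFP and 18601, 19068 and 19275 with Myc in wt, and 17811, 18625 and 18795 with GFP and 18982, 19562 and 18936 with Myc in ko. Its log2 differences were 0.07 (95% interval from -0.03 to 0.17) and 0.06 (from -0.04 to 0.16). Eef1a2, the form known from muscle and nerve, differed by -0.10 and 0.04. Eef1g was not analysed here.

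Eef1b2, a subunit that recharges eEF1A with GTP, read 5991, 6313 and 6146 with GFP and 7075, 7478 and 7799 with Myc in wt, and 6232, 6899 and 7103 with GFP and 7720, 7990 and 7935 with Myc in ko. It rose 1.21-fold in wt (adjusted p = 0.0182) and 1.17-fold in ko (adjusted p = 0.0328). Eef1d, a second exchange subunit, read 522, 545 and 378 with GFP and 657, 678 and 682 with Myc in wt, and 408, 455 and 408 with GFP and 662, 645 and 594 with Myc in ko, a rise of 0.50 on the log2 scale in wt (adjusted p = 0.0255) and 0.58 in ko (adjusted p = 0.0101). Eef1e1, which despite its name is a component of the multi-tRNA synthetase complex, read 2520, 2907 and 2295 with GFP and 3329, 3600 and 3922 with Myc in wt, and 2229, 2941 and 2563 with GFP and 3656, 4002 and 4046 with Myc in ko. It rose 1.41-fold in wt (adjusted p = 0.0223) and 1.52-fold in ko (adjusted p = 0.00701). For all 3 genes the lowest Myc array lay above the highest GFP array in each genotype.

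Eef2 read 11183, 11858 and 11130 with GFP and 12547, 12444 and 13493 with Myc in wt, and 11071, 11342 and 11713 with GFP and 12650, 12162 and 13426 with Myc in ko. The viruses did not overlap. Log2 differences of 0.17 and 0.16 missed the threshold (adjusted p = 0.0974 and 0.0928) and passed only with the block (0.0456 and 0.0471). Eef2k, the kinase that inhibits eEF2, had Myc differences of 0.09 and 0.07 and was not called.

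The enzymes that methylate the elongation factors included the gene with the lowest adjusted p of the 61 in both Myc comparisons. Eef1aknmt, which methylates eEF1A, read 300, 294 and 287 with GFP and 499, 450 and 552 with Myc in wt, and 290, 284 and 333 with GFP and 498, 488 and 556 with Myc in ko. GFP arrays were far below Myc arrays, and the genotypes overlapped. It rose 1.70-fold in each genotype (log2 0.76 ± 0.09, adjusted p = 0.00163 in wt; log2 0.77 ± 0.09, adjusted p = 0.000949 in ko).

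Eef2kmt, which methylates eEF2, rose 1.47-fold in wt (adjusted p = 0.0288) and had a log2 difference of 0.44 in ko (adjusted p = 0.0592, and 0.00036 with the block). Eef1akmt1 rose 1.61-fold in ko (adjusted p = 0.039) and had a log2 difference of 0.66 in wt (adjusted p = 0.059, and 0.00254 with the block); Eef1akmt2 rose 1.25-fold in ko (adjusted p = 0.0228). Both methylate lysines of eEF1A. The fifth measured enzyme, Eef1akmt3, had Myc differences of -0.03 and 0.02.

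**Figure D4:**
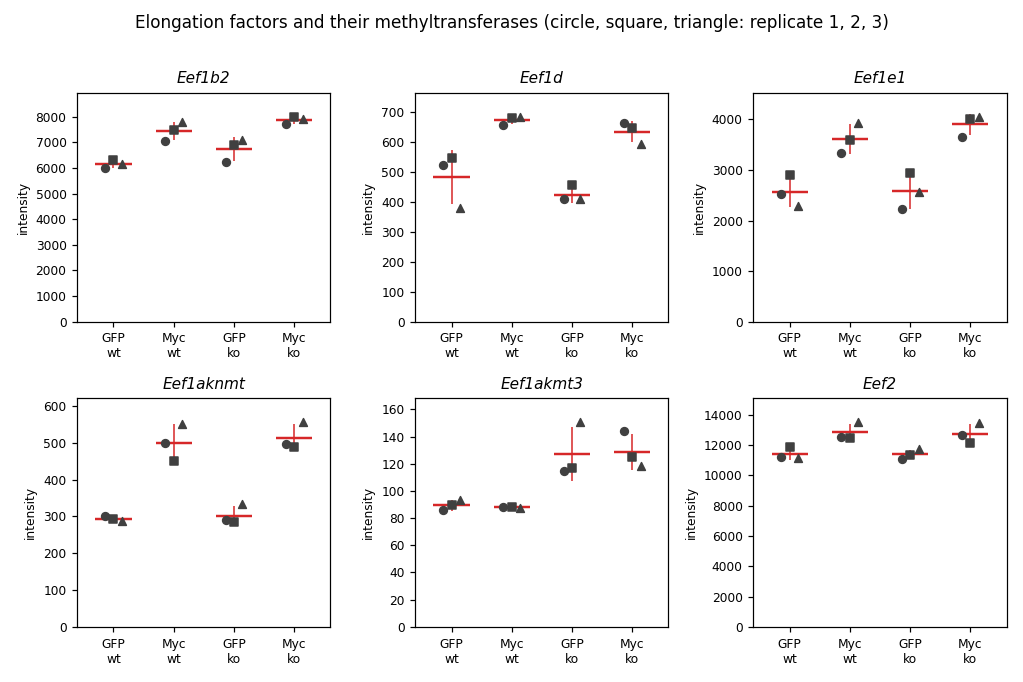
Intensity (y axis, linear scale from 0) of 6 elongation factor and methyltransferase genes on each array, by group (x axis); points are arrays, red lines are group means and bars are 1 SD of 3 arrays. Eef1b2, Eef1d, Eef1e1 and Eef1aknmt are higher in Myc arrays of both genotypes, Eef1akmt3 is higher in ko arrays of both viruses, and Eef2 shows small separations.

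Few of the 61 genes differed by Zfx genotype, and those called without the block encode eIF2 kinases or a methyltransferase. With GFP, 1 gene was higher in ko (Eef1akmt3) and 1 lower (Eif2ak4), where 1.17% of all genes were higher and 2.94% lower. With Myc, 2 were higher (Eef1akmt3 and Eif2ak1) and 1 lower (Eif2ak4), where 1.74% of all genes were higher and 3.72% lower; with arrays centred on their medians the split was 1 higher and 1 lower, since Eif2ak1 was lost. These shares are near the background. The median log2 difference over the 61 genes was 0.00 with GFP and 0.03 with Myc. With GFP the medians of the 3 same-numbered pairs were -0.07, -0.01 and 0.12, so the pairs went in different directions. The GFP count was 0 without the first or without the second wt array, and 1 without the first or the third ko array; the Myc count was 1 without the third wt array.

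Eef1akmt3 read 85.6, 89.3 and 93.6 in wt and 115, 117 and 150 in ko with GFP, and 87.8, 88.5 and 87.4 in wt and 144, 125 and 118 in ko with Myc. Every ko array was above every wt array, at levels near the median intensity of an array, which lay between 127 and 137. It was 1.41-fold higher with GFP (adjusted p = 0.0245) and 1.46-fold higher with Myc (adjusted p = 0.0131). The GFP call was lost without any 1 of the 3 wt arrays with GFP (adjusted p = 0.0878, 0.0687 and 0.063), and the Myc call without the third wt array with Myc (adjusted p = 0.05).

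With the block, 1 gene was higher and 5 were lower in ko with GFP (5.12% and 7.12% of all genes), and 3 were higher and 3 lower with Myc (6.05% and 8.03%). The calls that only the block gave were Eef2k, lower with both viruses (log2 -0.35 and -0.37, adjusted p = 0.00197 and 0.0012), Eif4a3, Eif4h and Eif4enif1, lower with GFP, and Eif4e3 lower and Eif2a higher with Myc. Eef2k read 857, 714 and 921 in wt and 700, 538 and 726 in ko with GFP, and 902, 793 and 955 in wt and 730, 576 and 750 in ko with Myc. Each ko array was below the wt array of its number; without the block its adjusted p was 0.291 and 0.223. A second Eef2k probe set gave -0.09 and -0.31. None of the eIF2, eIF2B, eIF3 or eEF1 genes was called by Zfx genotype in either fit.

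**Figure D5:**
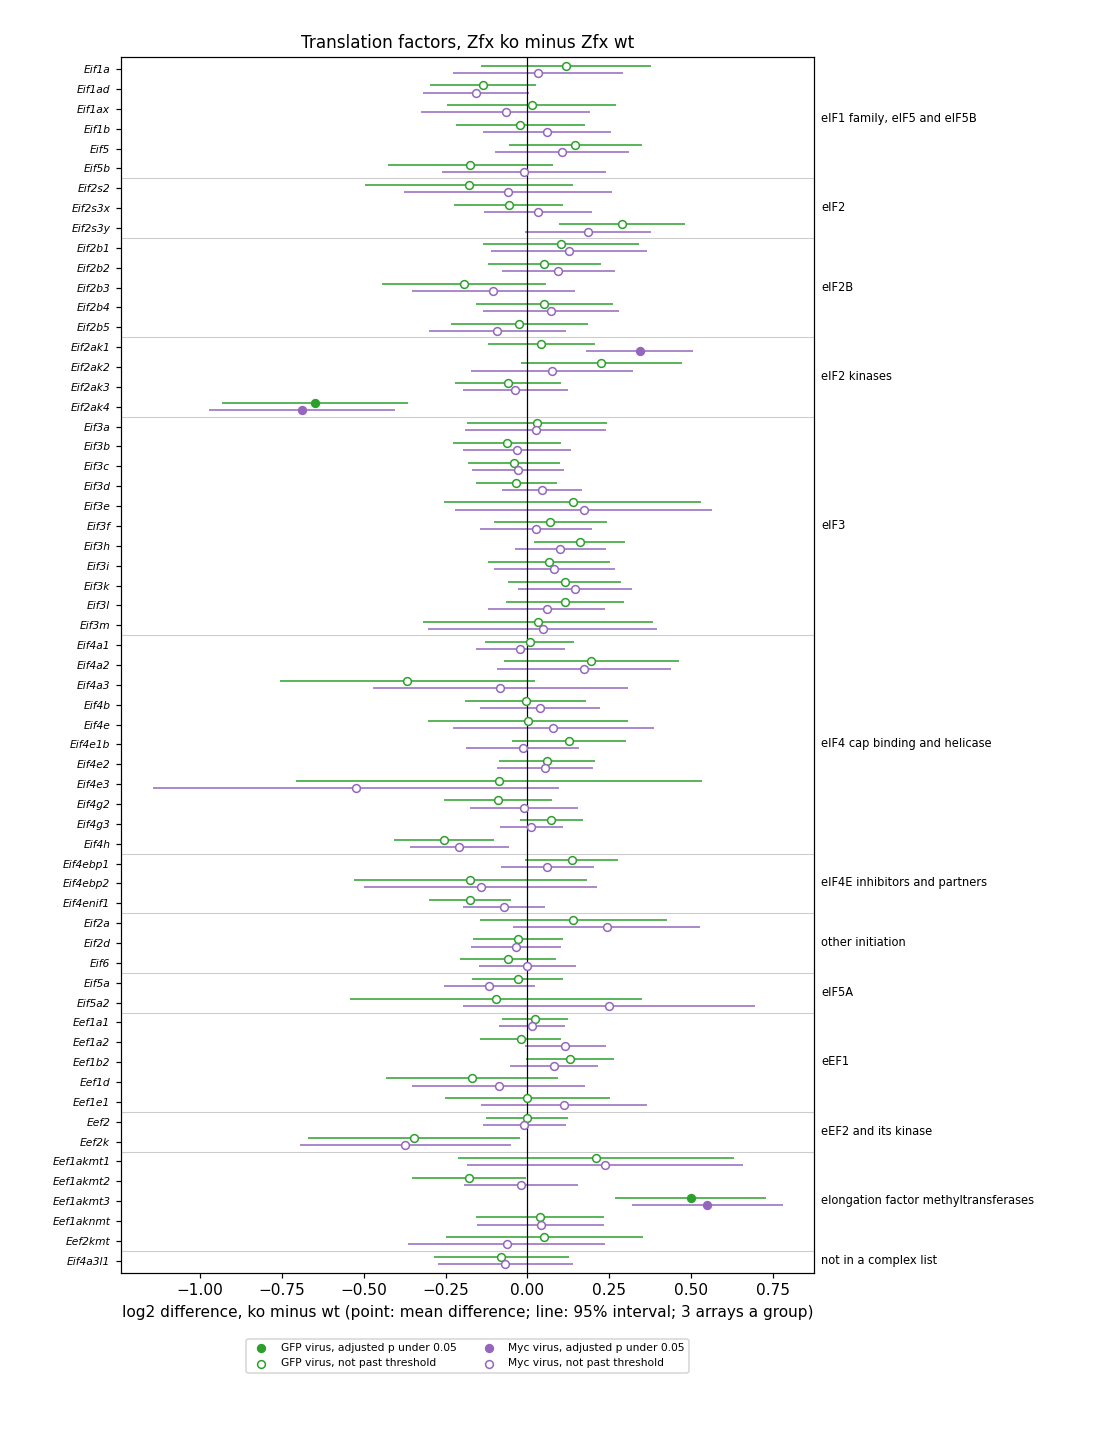
Log2 difference between Zfx ko and Zfx wt arrays (x axis, log2 units) for each of the 61 translation factor genes (y axis, grouped by complex), with GFP virus (green) and with Myc virus (purple), with 95% intervals from limma over 3 arrays a group. Filled points passed an adjusted p under 0.05: Eif2ak4 lies left of 0 and Eef1akmt3 right of 0 for both viruses, Eif2ak1 passed with Myc, and most other intervals include 0.

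Genes that act around these factors gave the following counts with Myc, to be read against the 6.17% of all genes that were higher in wt and the 8.58% in ko. Of 8 measured genes that make hypusine on eIF5A or diphthamide on eEF2, 5 rose in wt and 6 in ko, with medians of 0.38 and 0.49 on the log2 scale. Dohh, which completes hypusine, rose by 0.61 on the log2 scale in wt and 0.58 in ko (adjusted p = 0.0285 in each), and Dph5 rose 1.38-fold and 1.52-fold (adjusted p = 0.0312 and 0.00742). Of 9 mitochondrial translation factors, 4 rose in wt and 6 in ko, with medians of 0.43 and 0.46; the mitochondrial elongation factor Tufm rose 1.40-fold and 1.48-fold (adjusted p = 0.0307 and 0.0127). Of 9 release and recycling factors, 3 rose in each, Abce1, Gspt1 and Hbs1l, by 1.22- to 1.33-fold. Of 11 poly(A) and cap regulators, Larp1 and Larp4 rose in both and Dhx29 in ko. Of 9 mTORC1 and S6 kinase genes, Akt1s1 rose in both, and Rptor and Deptor in ko, so that the share in wt, 1 of 9, was near that of all genes; Akt1s1 and Deptor are inhibitors of mTORC1.

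Of 9 genes of eIF2 dephosphorylation and stress, Gcn1, the activator of the kinase Eif2ak4, rose 1.25-fold in wt and 1.41-fold in ko (adjusted p = 0.0246 and 0.00299), and Dnajc3, an inhibitor of eIF2 kinases, fell in ko by 0.38 on the log2 scale (adjusted p = 0.0317). Each of these calls is 1 of 9 genes, which is near the share of all genes. With Myc, 6.17% of all genes were higher in wt, and in ko 8.58% were higher and 4.59% lower. By Zfx genotype, Trib3, a stress-induced pseudokinase, was 1.29-fold higher in ko with Myc (adjusted p = 0.0358). It was the 1 gene of the 9 called there, where 1.74% of all genes were higher. Larp1, which binds mRNAs of ribosomal proteins and translation factors, was 0.79 times the wt level in ko with GFP (adjusted p = 0.0049) and 0.843 times with Myc (adjusted p = 0.0204). Of 7 genes of selenocysteine insertion, 2 were lower in ko with GFP and 3 with Myc, where 2.94% and 3.72% of all genes were lower. Sephs2, which makes the selenium donor, was 0.694 and 0.672 times the wt level (adjusted p = 0.0345 and 0.0193). Trnau1ap was lower with GFP, and Eefsec, the elongation factor for selenocysteine, and Pstk were lower with Myc. With Myc, Pstk rose in wt and Trnau1ap in ko.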

How the data were processed

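The deposited table holds intensities, 1 per probe set and array, on a linear scale; the authors made them with RMA, per the submitters' processing notes, and the sources used here name no software version. Quantile normalization within RMA sets all arrays to like distributions, so a shift of total RNA per cell is not seen. Here log2 was taken with no pseudocount or filter on dim probe sets. Of 35556 probe sets, 21789 had 1 gene symbol, 1621 several and 12146 were not listed in the gene table; for each of 19938 genes the probe set with the highest mean was kept. Groups came from sample titles. All 12 arrays entered 1 fit in limma 3.58.1 (R 4.3.3, lmFit and eBayes) with 4 group means and 8 residual degrees of freedom, Benjamini-Hochberg adjusted over all genes, threshold 0.05; the fit was tested on simulated data. The number of arrays limits the precision. Alternatives were a second quantile normalization, the replicate block, array centring, a trended robust prior, array weights, only the groups compared, genes above the median intensity, all probe sets, and leaving out each array.

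The labels give replicate numbers only. Deviations from group means correlated at 0.40 to 0.85 (median 0.64, 18 pairs) between same-numbered arrays and at a median of -0.42 between others. Deviations within a group cancel out by construction, so positive values for same-numbered arrays push the others to negative values. The negative median is thus not separate evidence of pairing. Of the 12 arrays, 12 were closest to an array of their own number, so the block is printed where it changes a call.

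Genes were named by rule: all eIF2, eIF2B and eIF2 kinase genes, main eIF4, eIF5A, eIF6, eEF1A and eEF2 genes, up to 6 called genes per direction in other complexes, the ends of each range, up to 4 called genes in each list of related genes, and the lowest p of the interaction. The members and lists were chosen with earlier results of these data known. Probe sets with several symbols are counted and mentioned only where they bear on a gene. B cell, T cell and macrophage marker lists had 0 members past the threshold in any comparison fitted without the block.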

Additional observations from a re-analysis of the deposited data

How the results depend on the processing

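Leaving out 1 array at a time gave 6 to 25 genes called for Myc in wt (18 with all arrays), 11 to 26 for Myc in ko (24), 0 to 2 for Zfx with GFP (2), 1 to 3 for Zfx with Myc (3) and 0 for the interaction. The replicate block gave 34 genes for Myc in wt, 41 for Myc in ko, 6 for Zfx with GFP and 6 for Zfx with Myc, and 0 for the interaction. Array weights gave 35 for Myc in wt and 4 for Zfx with GFP. Fitting only the groups compared, with fewer arrays behind the spread, gave 10 for Myc in ko and 0 for Zfx with GFP. Testing only genes above the median intensity, which removes Eef1akmt3, gave 1 for Zfx with GFP. The other counts, under a second quantile normalization, array centring, a trended robust prior and all probe sets, stayed within 1.5 times of the count reported, and the differences of called genes kept their sign. Why the counts moved was not tested beyond the number of arrays and genes each setting uses; the cause was not tested for the block and the weights. Among called genes, Eif2ak3 in wt and Eif2d in ko were each lost under 4 of 8 settings, with adjusted p up to 0.0983 and 0.144. The files used here give no background signal, so dim probe sets such as that of Eef1akmt3 cannot be set against it.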
